A study of Homo sapiens with 12 samples.

Results

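The human alkaline phosphatase genes comprise ALPP, ALPPL2 (ALPG in newer annotation), ALPI and ALPL, and all rows carrying these 4 symbols were taken from a table of 197782 transcripts with 44786 symbols. They covered 14 transcripts: 3 of ALPP, 2 of ALPPL2, 2 of ALPI and 7 of ALPL. The genes were chosen by their levels in these libraries, since ALPPL2 and ALPP had appeared with DAC + ATRA, so those levels are given as a description without a test. RNA-seq was available for 12 libraries of U937, an established human myelomonocytic leukemia cell line, with 3 libraries for each of 4 groups. The groups were untreated cells (labelled 96 h), cells given 200 nM of the DNA hypomethylating agent decitabine (DAC) in daily doses, cells given 1 µM all-trans retinoic acid (ATRA), and cells given both agents (DAC + ATRA), each labelled 72 h. Per the study's methods, ATRA was added with the last daily DAC dose. The 72 h count from the start of DAC, so the exposure to ATRA was shorter. Comparisons with untreated cells differ in labelled time as well as in treatment. Per the labels, all cultures were grown in medium with FCS and GM-CSF. The series describes the libraries of a treatment as technical triplicates of a single cell line, so every p-value measures only the spread between such libraries.

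Alkaline phosphatases are zinc enzymes that remove phosphate groups from many substrates at alkaline pH and are held on the outer cell surface by a glycosylphosphatidylinositol (GPI) anchor. ALPP is the placental and ALPPL2 the germ cell enzyme, and both are known to be produced outside their normal tissues by some tumors. ALPI is the enzyme of the intestinal brush border. ALPL, the tissue-nonspecific form, acts in bone mineralization and is the enzyme stained in mature neutrophils as leukocyte alkaline phosphatase.

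ALPP, ALPPL2 and ALPI are neighbors on chromosome 2 (hg38, band 2q37.1), all on the plus strand. The ALPP transcript with reads (ENST00000392027) lay at chr2:232378751-232382889 and had 11 exons and 2754 bases. The ALPPL2 transcript with reads (ENST00000295453) lay at chr2:232406844-232410714, also with 11 exons, and was 2492 bases long. ALPI followed at chr2:232456153-232460753, whereas ALPL lay on another chromosome at chr1:21509423-21578410. Over 2456 aligned bases, the transcripts of ALPP and ALPPL2 were 91.7% identical, and ALPI shared 82.5% with ALPP and 85.3% with ALPPL2. ALPL was more distant, with 67.0% identity to ALPP.

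The promoters of the 3 genes at 2q37.1 were compared because the neighbors differed in reads. The sequences are the 250 bases before each start on the plus strand, from RefSeq (GRCh38.p14), at chr2:232378501-232378750 for ALPP, chr2:232406594-232406843 for ALPPL2 and chr2:232455903-232456152 for ALPI. Capitals mark the words AGGTCA and GGGTCA, half-sites to which retinoic acid receptors and other nuclear receptors can bind. The word TTTAAA, which resembles the box that places the start of many promoters, is also in capitals.
ALPP: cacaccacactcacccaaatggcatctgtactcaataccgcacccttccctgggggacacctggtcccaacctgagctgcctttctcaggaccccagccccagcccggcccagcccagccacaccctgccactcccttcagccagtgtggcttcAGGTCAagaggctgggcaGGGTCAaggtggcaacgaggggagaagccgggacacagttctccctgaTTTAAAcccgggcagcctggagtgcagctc
ALPPL2: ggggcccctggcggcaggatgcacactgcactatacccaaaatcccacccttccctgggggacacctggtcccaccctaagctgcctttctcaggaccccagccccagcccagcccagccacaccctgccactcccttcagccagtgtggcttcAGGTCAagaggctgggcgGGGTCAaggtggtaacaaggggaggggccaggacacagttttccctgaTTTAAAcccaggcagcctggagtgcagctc
ALPI: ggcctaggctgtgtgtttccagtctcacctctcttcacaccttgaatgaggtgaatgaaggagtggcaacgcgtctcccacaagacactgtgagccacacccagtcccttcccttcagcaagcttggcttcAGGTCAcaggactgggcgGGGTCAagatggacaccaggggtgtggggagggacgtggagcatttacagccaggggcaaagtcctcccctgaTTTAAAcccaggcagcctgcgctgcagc
The upstream sequences of ALPP and ALPPL2 were 92.6% identical over 229 aligned bases, and ALPI shared 71.9% with ALPP and 74.0% with ALPPL2. AGGTCA began 96 bases before the start in ALPP and ALPPL2 and 119 bases before it in ALPI, each time followed by GGGTCA after 12 bases. Both strands of the 250 bases before the start were searched in 35116 promoters. There AGGTCA was found in 12.1%, GGGTCA in 12.1%, both in 1.76% and TTTAAA in 11.3%. The 2 half-sites in this order and 12 bases apart were found in 4 promoters, 3 of them being those printed, and this spacing was picked after the sequences were seen. None of the marked words occurred in the 250 bases before the 3 ALPL starts. ALPI carried the same words as its neighbors, at other distances from the start, and its transcripts had no reads. Whether the words act in these cells was not tested.

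Larger windows around the starts showed few classical retinoic acid response elements, which are direct repeats with a spacer of 1, 2 or 5 bases (DR1, DR2 and DR5). The half-sites searched on both strands were AGGTCA and GGGTCA as well as AGTTCA and GGTTCA. Within 5000 bases of the start, ALPP had a DR5 in the intron after exon 4, 957 bases downstream of the start at chr2:232379708-232379724.
DR5 in ALPP: GGGTCAcggccAGGTCA
A DR5 was present in 2.12% of 8771 windows around tested transcripts. ALPPL2 had a DR2, a type found in 40.5% of those windows, at -3252 bases from the start, at chr2:232403592-232403605.
DR2 near ALPPL2: AGGTCAggAGTTCA
ALPI and ALPL had none of the 3 repeats in their windows. The 3 genes at 2q37.1 were also poor in CpG, the dinucleotide on which DNA methyltransferases act. Within 1000 bases on either side of the start, ALPP had 46 CpGs, ALPPL2 44 and ALPI 48, compared with 129 for ALPL and a median of 105 over the tested windows. Neither methylation nor binding of a factor at these sequences was measured in the libraries described here.

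ALPPL2 had the most reads of the 4 genes. Untreated libraries had 0, 0 and 0 reads, DAC libraries 0, 3 and 1 and ATRA libraries 0, 1 and 0. In the DAC + ATRA libraries 68, 74 and 77 reads were counted, which gave normalized read-counts of 61.5, 77.9 and 95.2. All 3 combination libraries were above each of the other 9, which is the contrast for which ALPPL2 was chosen. The share of all transcripts with such a separation was not counted. The mean with DAC + ATRA was 78.2 ± 16.8 normalized reads (SD, n = 3), compared with 1.31 ± 1.49 with DAC and 0.303 ± 0.526 with ATRA. Against untreated cells, where no read was counted, ALPPL2 was 83.3-fold above a floor of 3 reads over the group. The 95% counting interval of this ratio began at 67.2. The ratio to DAC rested on 4 reads and was 56.5 (95% counting interval 21.7 to 209), and the ratio to ATRA rested on 1 read and was 248 (44.1 to 9847). Reads carried no molecular identifiers. The intervals cover counting error only, and the floor only that of the group without reads.

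ALPP was counted only in the DAC + ATRA libraries. Its reads numbered 0 in each of the 9 untreated, DAC-treated and ATRA-treated libraries and 46, 37 and 37 in the libraries with both agents. The corresponding normalized read-counts were 41.6, 38.9 and 45.7, with a mean of 42.1 ± 3.42 (SD, n = 3). With DAC + ATRA, ALPP was 45.6-fold above the floor of 3 reads per group for untreated cells. It was 41.3-fold above that floor for DAC and 45.3-fold above it for ATRA. The counting intervals of these ratios, made as for ALPPL2, began lower, at 36.6, 33.0 and 36.3. Between the combination libraries, the coefficient of variation of the normalized reads was 8.12% for ALPP and 21.5% for ALPPL2. Both were moderately abundant in DAC + ATRA-treated cells. Of 21103 protein-coding transcripts with reads in that group, ranked on normalized reads not scaled by length, ALPPL2 was number 4380 and ALPP number 5340. In bulk RNA, more cells with the transcripts and more RNA per cell cannot be told apart.

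**Figure D1:**
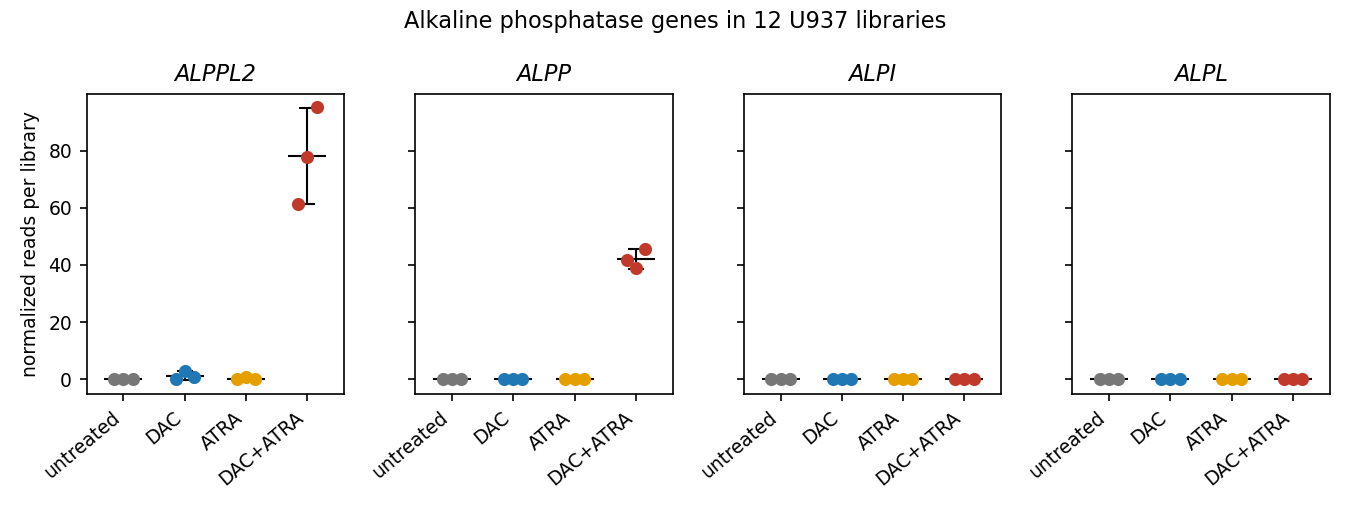
Normalized reads (y axis) of ALPPL2, ALPP, ALPI and ALPL in each library of the 4 groups (x axis), with horizontal marks and bars for the mean and SD of 3 libraries. ALPPL2 reached 61.5 to 95.2 and ALPP 38.9 to 45.7 with DAC + ATRA, ALPPL2 had at most 3 reads in any other library, and ALPI and ALPL were at 0 throughout.

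ALPI and ALPL had 0 reads in all 12 libraries, as had the other 2 transcripts of ALPP and the other transcript of ALPPL2. A count of 0 allows up to 3 reads, or 2.50 to 3.71 normalized reads, per library. For ALPL this limit covers little of the gene. Its 7 transcripts overlap each other so that only 455 bases do not overlap another transcript on that strand, 11 of them in ENST00000374840. Transcripts without any such base rarely received counts: 2.02% of 57691 had at least 10 reads, compared with 33.5% of 117077 with such a base. PTPRC, which encodes the leukocyte antigen CD45, was likewise listed at 0 in all 12 libraries. The listed 0 for ALPL therefore gives no measure of ALPL RNA outside these bases. ALPI had 1579 bases of its own, and at this depth no read fell on them.

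Which of ALPP and ALPPL2 was the more abundant depended on how length was taken into account. As counted, the ratio of ALPP to ALPPL2 was 0.676, 0.50 and 0.481 in the 3 DAC + ATRA libraries. Per kb of whole transcript, ALPP had 15.3 ± 1.24 and ALPPL2 31.4 ± 6.76 normalized reads (SD, n = 3). However, only 967 bases of the ALPP transcript lie outside other transcripts of the strand, whereas all 2492 bases of ALPPL2 do. Per kb of such sequence the level of ALPP was 43.5 ± 3.53, above the 31.4 ± 6.76 of ALPPL2, and the ratio was 1.42 ± 0.278. The paralogs also share sequence. Of the 50-base windows, the length of a read, 28.9% of 2705 in ALPP and 29.3% of 2443 in ALPPL2 occur elsewhere in hg38 or in another gene's transcripts. Counting only windows of single occurrence outside other transcripts, the ratio was 1.90 ± 0.371. The order of both genes is therefore uncertain, and reads of one may have been assigned to the other. How reads matching both genes were handled is not given in the sources used here.

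**Figure D2:**
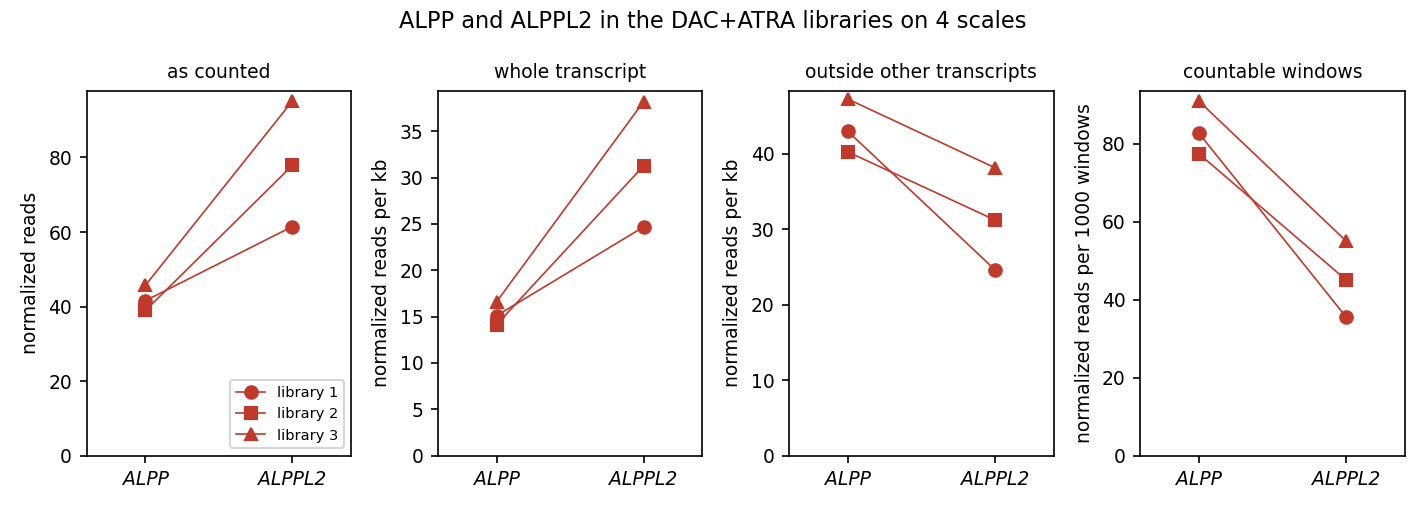
ALPP and ALPPL2 (x axis) in the 3 DAC + ATRA libraries, each library a line, as normalized reads, per kb of transcript, per kb outside other transcripts and per 1000 countable 50-base windows (y axes, from 0). ALPPL2 was above ALPP in every library on the first 2 scales and below it on the other 2.

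The pattern of both genes was rare. Of 9016 tested protein-coding transcripts (at least 10 normalized reads in at least 3 libraries), 16 (0.177%) had at most 3 reads in each of the 9 libraries outside the combination and at least 10 normalized reads in each DAC + ATRA library. This includes ALPPL2 and ALPP, which were chosen for it and which passed the filter only through the combination. ALPP and a transcript of PALM, which encodes a membrane-bound protein of the paralemmin family, were the 2 (0.0222%) without a read in those 9 libraries. Among the 16, ALPPL2 had the highest mean in DAC + ATRA. It was followed by TMEM213 with 69.7 ± 9.26, SEC14L5 with 60.2 ± 8.94, PALM with 47.5 ± 11.4 and the epithelial transcription factor gene ELF3 with 42.8 ± 2.78 normalized reads, all before ALPP. These levels are not scaled by length. The pattern holds for transcripts rather than for whole genes: summed over all transcripts of a symbol, 9 of the 16 still had at most 3 reads in each of the other libraries. For ELF3, 58 reads fell on its transcripts outside the combination, and for HIC1, a transcriptional repressor gene responsive to retinoic acid, 619 reads were counted in the ATRA libraries. ALPPL2 with 5 reads and ALPP with 0 kept the pattern when summed.

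**Figure D3:**
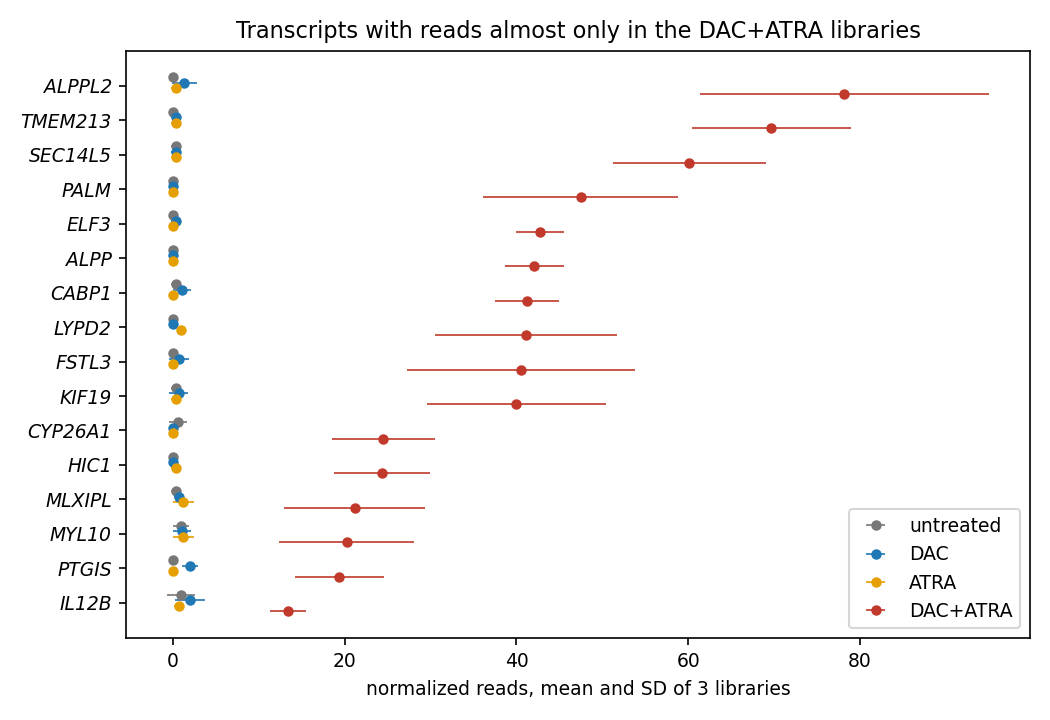
Normalized reads (x axis, mean with SD of 3 libraries, by group) of the 16 transcripts (y axis, ordered by the DAC + ATRA mean) with at most 3 reads in each other library. ALPPL2 stands first at 78.2 and ALPP sixth at 42.1, and every untreated, DAC and ATRA mean is near 0.

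The transcripts most like ALPPL2 over the 12 libraries by Pearson's r were ELF3 (0.988), KIF19 (0.981), C11orf86 (0.980), PALM (0.974) and LRRN4 (0.971). Those most like ALPP were PALM (0.999), ELF3 (0.993), TMEM213 (0.991), HIC1 (0.988) and SEC14L5 (0.986). Both lists hold PALM and ELF3. Between ALPP and ALPPL2, r was 0.974. These coefficients describe the 3 DAC + ATRA libraries against the other 9, where most of these transcripts had few or no reads (LRRN4 had group means of 2.45 to 8.65), and they do not rank the transcripts beyond that.

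Around the cluster, the transcripts within 200 kb did not share the pattern of ALPP and ALPPL2. Of 61 transcripts with 13 symbols, 17 had reads and 4 other transcripts were tested. With DAC + ATRA vs. untreated, 46.8% of all 9016 tested transcripts passed an adjusted p of 0.01 (limma), 32.6% higher and 14.2% lower. TIGD1, a gene derived from a DNA transposon, had 551 ± 62.8 normalized reads without treatment, 251 ± 22.2 after DAC, 371 ± 35.9 after ATRA and 180 ± 17.8 after DAC + ATRA. It was lower with the combination, with a log2 fold change of -1.61 ± 0.13 (SE, adjusted p = 8.1e-10, limma). DIS3L2, an exonuclease gene that starts on the other side of ALPP, had 35.2 ± 1.54 and 45.2 ± 3.20 normalized reads in untreated and DAC + ATRA-treated cells (adjusted p = 0.209, limma). EIF4E2, a cap-binding repressor of translation, had 56.3 ± 4.795 and 60.7 ± 7.18 (adjusted p = 0.676, limma). Farther away, GIGYF2, which encodes a partner of EIF4E2, increased by 0.69 ± 0.13 (adjusted p = 8.4e-05, limma), and INPP5D, a lipid phosphatase gene, did not pass the test (-0.36 ± 0.21, adjusted p = 0.147, limma). Thus 1 of 5 listed neighbors was higher and 1 lower, with a median log2 fold change of 0.10 compared with 0.20 over all tested transcripts.

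**Figure D4:**
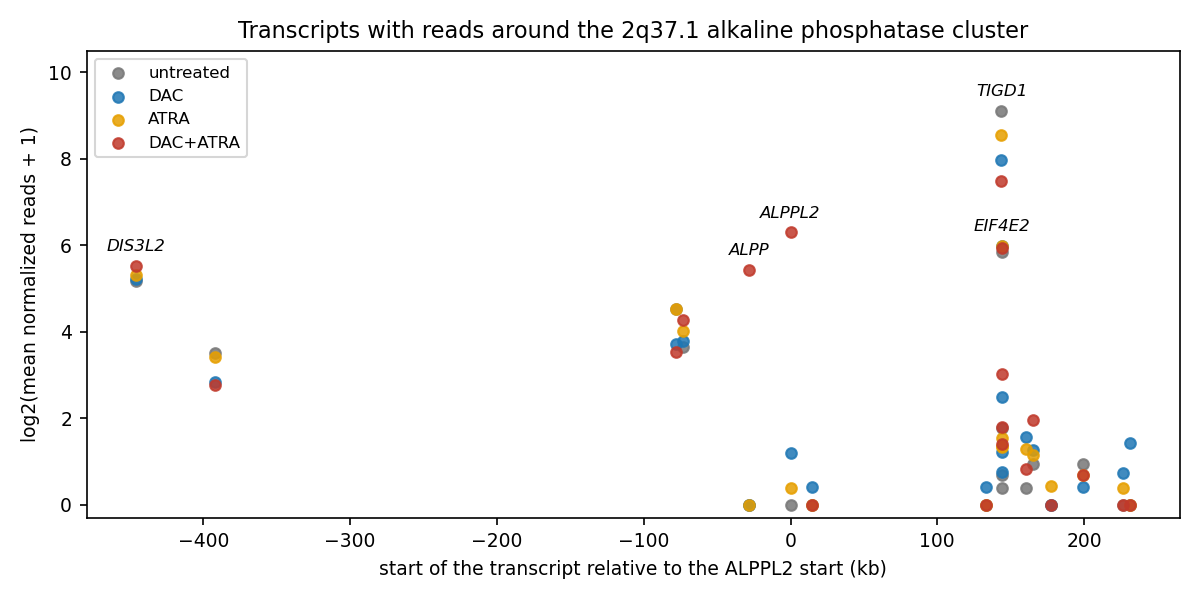
Transcripts with reads around the 2q37.1 cluster, with the distance of their start from the ALPPL2 start in kb (x axis) and log2(mean normalized reads + 1) per group (y axis). ALPP and ALPPL2 are high in DAC + ATRA with the other groups at or near 0, whereas the groups of DIS3L2 and EIF4E2 lie close together and TIGD1 falls from 551 to 180 normalized reads.

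ALPL itself could not be measured, but several of its neighbors at 1p36.12 changed. Of 7 listed and tested genes, RAP1GAP was tested only because of the combination. Of the other 6, 4 were higher with DAC + ATRA by limma, beside 32.6% of all tested transcripts, and USP48 and CDC42 were not called. USP48, a deubiquitinase gene, was called lower with edgeR's TMM (-0.63, adjusted p = 0.00587) and under 5 further alternatives, among them DESeq2 and library size scaling. LDLRAD2 rose from 0.303 ± 0.526 to 198 ± 20.6 normalized reads and was already at 182 ± 15.01 with DAC. WNT4, a secreted signaling protein gene, was at 0.918 ± 0.00673 without treatment, 109 ± 29.5 after DAC and 98.7 ± 18.1 after DAC + ATRA. HSPG2, the gene of the matrix proteoglycan perlecan, rose from 202 ± 19.4 to 869 ± 80.5 (log2 fold change 2.10 ± 0.12, adjusted p = 9.2e-12, limma). RAP1GAP, which encodes an inactivator of the GTPase RAP1, was at 0.614 ± 0.532 without treatment and 15.7 ± 3.71 after DAC + ATRA. ECE1, the gene of endothelin converting enzyme, increased by 0.51 ± 0.13 (adjusted p = 0.00251, limma), a call that was lost with library size scaling (0.36, adjusted p = 0.0104), without untreated library 3 (adjusted p = 0.0257) and without DAC + ATRA library 2 (adjusted p = 0.0118).

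The genes of the pathways in which alkaline phosphatases act were counted next, beside the 32.6% of all tested transcripts that were higher and the 14.2% that were lower with DAC + ATRA. Of 11 tested genes for GPI anchor synthesis and attachment, MPDU1 would not have passed the filter without the DAC + ATRA libraries. It had 10.9 ± 1.76 normalized reads with ATRA and 11.5 ± 3.70 with DAC + ATRA. Of the other 10, 2 were lower with DAC + ATRA by limma and 8 were not called. Over all 11, edgeR called 4. The 2 were PIGU, a subunit of the transamidase that attaches the anchor (-1.09 ± 0.14, adjusted p = 1.4e-06), and PIGX, a subunit of a mannosyltransferase named after its values were seen (-0.41 ± 0.12, adjusted p = 0.00778). The median of the 10 was -0.51. GPLD1 was not called by limma (-1.04 ± 0.33, adjusted p = 0.0112) but was called lower under 10 alternatives. Among these were edgeR (-1.13, adjusted p = 0.00487) and DESeq2 (-1.14, adjusted p = 0.00926). Among 17 tested genes for other GPI-anchored surface proteins, 8 were higher and 1 lower by limma, with a median log2 fold change of 0.50. With edgeR and DESeq2, TNFRSF10C was not called among the 8 (adjusted p = 0.0131 and 0.0343). VNN1, the gene of a pantetheinase, was not called by limma (-0.30 ± 0.13, adjusted p = 0.0564) but was called lower with edgeR (-0.44, adjusted p = 0.00507), DESeq2 and library size scaling. CD52, a small lymphocyte and monocyte glycoprotein, rose from 1.21 ± 2.10 to 910 ± 139 normalized reads. THY1, which encodes CD90, was at 0 in untreated and ATRA-treated cells. It was at 138 ± 10.4 with DAC and 82.1 ± 11.2 with DAC + ATRA. With DAC + ATRA, THY1 was 90.5-fold above a floor of 3 reads over the untreated group. CEACAM6, an adhesion molecule, fell by 0.86 on the log2 scale (SE 0.19, adjusted p = 0.00054, limma).

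Of 10 tested genes for handling phosphate, pyrophosphate and nucleotide substrates, 2 were higher and 1 lower, or 3 called by limma, beside 46.8% of all tested transcripts. With edgeR, DESeq2 or library size scaling, 5 of the 10 were called. ENPP6, a choline phosphodiesterase gene, had 0.607 ± 1.05 normalized reads without treatment, 24.4 ± 0.866 after DAC and 25.96 ± 5.35 after DAC + ATRA. PHOSPHO1, a phosphatase that works with ALPL in bone mineralization, increased by 1.88 ± 0.35 (adjusted p = 0.00011, limma). PPA1, the cytosolic pyrophosphatase, decreased by 2.52 on the log2 scale (SE 0.46, adjusted p = 0.00034, limma). Of 2 tested acid phosphatases, ACP1 was lower (-1.31 ± 0.27, adjusted p = 0.00028, limma) and ACPP was not called (-0.24 ± 0.18, adjusted p = 0.283, limma). Of 5 tested genes of bone mineralization, 3 were higher: BMP2, a bone-inducing growth factor (4.01 ± 0.23), COL1A1, a chain of type I collagen (2.83 ± 0.19), and SPARC, a matrix protein that binds collagen (1.72 ± 0.25). Their adjusted p-values by limma were at most 4.4e-06, and RUNX2, the osteoblast transcription factor, was not called (-0.16 ± 0.31, adjusted p = 0.681, limma). With DAC alone, 3 of the 5 genes were higher by limma, beside 30.6% of all tested transcripts, COL1A1 by 3.56 ± 0.19.

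Genes of the tissues that normally produce ALPP and ALPPL2 were mostly not measurable. Of 39 listed placental and germ cell genes, 34 were not tested. The hormone subunit CGA, the pregnancy glycoprotein PSG1, the placental lactogen CSH1 and the aromatase CYP19A1 were among 20 with 0 reads in all libraries. Where transcripts overlap, a listed 0 does not show absence of the RNA, as for ALPL. The other 14 untested genes had at most 40 reads over the 12 libraries. Of these, 9 had more reads with DAC + ATRA than without treatment and 3 had fewer, a tally that was not made over all untested transcripts. NANOG, a pluripotency factor, had 1 read in untreated, 10 in DAC, 0 in ATRA and 11 in DAC + ATRA libraries, and the envelope gene ERVW-1 had 0, 7, 0 and 7. Of the 5 that were tested, GATA3 and TFAP2A would not have passed the filter without the DAC + ATRA libraries. TFAP2A had 12.2 ± 2.83 normalized reads with DAC and 9.26 ± 6.51 with DAC + ATRA. Of the other 3, SALL4 was higher with DAC + ATRA by limma. SALL4, a stem cell transcription factor, had 3.06 ± 0.535 normalized reads without treatment, 54.0 ± 13.1 after DAC, 5.22 ± 1.78 after ATRA and 30.6 ± 4.15 after DAC + ATRA. GATA3, a transcription factor of trophoblast and T cells, was at 0.616 ± 1.07 without treatment and 14.4 ± 3.15 after DAC + ATRA. The other 3, GCM1, TFAP2A and LIN28B, had log2 fold changes of -0.43 ± 0.30, 0.20 ± 0.47 and -0.21 ± 0.13 and were not called by limma (adjusted p of 0.238, 0.736 and 0.169). LIN28B, a regulator of let-7 processing, was called lower with edgeR (-0.36, adjusted p = 0.00671), DESeq2 (adjusted p = 0.00556) and library size scaling (adjusted p = 0.00787, limma).

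Markers of neutrophil maturation, the state in which leukocyte alkaline phosphatase is normally found, comprised 30 listed genes, of which 13 were tested. CXCR1 and CEACAM1 passed the filter on low values only through the DAC + ATRA libraries. The other 11 were all higher with DAC + ATRA by limma, beside 32.6% of all tested transcripts. Their median log2 fold change was 3.77, compared with 0.20 over all tested transcripts. Of these, TNFRSF10C, a decoy receptor gene for TRAIL, lost its call under 6 alternatives, including edgeR (adjusted p = 0.0131) and DESeq2 (adjusted p = 0.0343). Of the 17 genes not tested, 5 had 0 reads in all libraries, among them FCGR3B, MME and CD177. S100A8 had 1 read over the 12 libraries. As for ALPL, such low counts do not show absence of the RNA where transcripts overlap. Another 9 had more reads with DAC + ATRA than without treatment and 2 had fewer. No such tally was made over all untested transcripts, so these counts are a description only. CR1, a complement receptor gene, had 0 reads in untreated and 39 in DAC + ATRA libraries, CEACAM8, an adhesion molecule gene, had 0 and 16, and the collagenase gene MMP8 had 1 and 14. PROK2 had 25 reads in untreated and 16 in DAC + ATRA-treated cells, and CSF3R, counted almost only on transcripts outside the protein-coding set, had 2058 and 1264 reads. CSF3R, which encodes the G-CSF receptor, and the other untested genes with reads named here and above were chosen after their values were seen. S100A9, a calcium-binding protein of myeloid cells, had 80.1 ± 4.97 normalized reads without treatment. It had 1089 ± 140 after DAC, 974 ± 171 after ATRA and 5235 ± 404 after DAC + ATRA. CEBPD, a myeloid transcription factor, was at 0 without treatment, 508 ± 125 after DAC, 0.277 ± 0.481 after ATRA and 440 ± 30.2 after DAC + ATRA. CEACAM1, an adhesion molecule, was at 0, 6.32 ± 3.26, 0.959 ± 0.914 and 82.4 ± 13.3 in the same order. With DAC + ATRA, CEBPD was 480-fold and CEACAM1 90.5-fold above a floor of 3 reads over the untreated group. CXCR2, an interleukin-8 receptor, had the smallest change (0.76 ± 0.12, adjusted p = 2.5e-05, limma). Of 7 tested genes of the retinoic acid response, CYP26A1 and TGM2 were tested only because of the combination, and the other 5 were higher, among them the retinol metabolism gene DHRS3 (3.81 ± 0.12) and the ectoenzyme gene CD38 (3.94 ± 0.12). With DAC + ATRA vs. DAC, where 11.3% of all tested transcripts were called (6.08% higher, 5.26% lower), these 5 were higher as well.

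The single agents were counted in the same lists, leaving out the genes tested only because of the combination. Over all tested transcripts, DAC vs. untreated called 39.3% (30.6% higher, 8.7% lower) and ATRA vs. untreated 9.14% (6.47% higher, 2.67% lower) by limma. This split depended on the scaling and the tool. With DAC, 77.9% of the calls were higher by limma with the deposited scaling, 65.5% by limma with library size scaling and 58.9% by edgeR with TMM. With ATRA the shares were 70.8%, 54.6% and 60.6%. Of the 11 neutrophil maturation genes, 10 were higher with DAC and 6 with ATRA. Of the 17 GPI-anchored surface protein genes, 11 were higher with DAC, while with ATRA 1 was higher and 1 lower. Of the 5 retinoic acid response genes, 5 were higher with ATRA, and with DAC 1 was higher and 1 lower. Of the 3 placental and germ cell genes, 1 was higher with DAC. The DAC × ATRA interaction, which compares the combination with the sum of the single agents on the log2 scale, was called for 2.46% of all tested transcripts (0.787% above and 1.67% below 0). This was 222 transcripts, and 483 (95 above and 388 below 0) without ATRA library 3. The interaction was below 0 for 5 of the 11 neutrophil maturation genes, of which MMP25 lost its call under 11 of 21 alternatives.

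**Figure D5:**
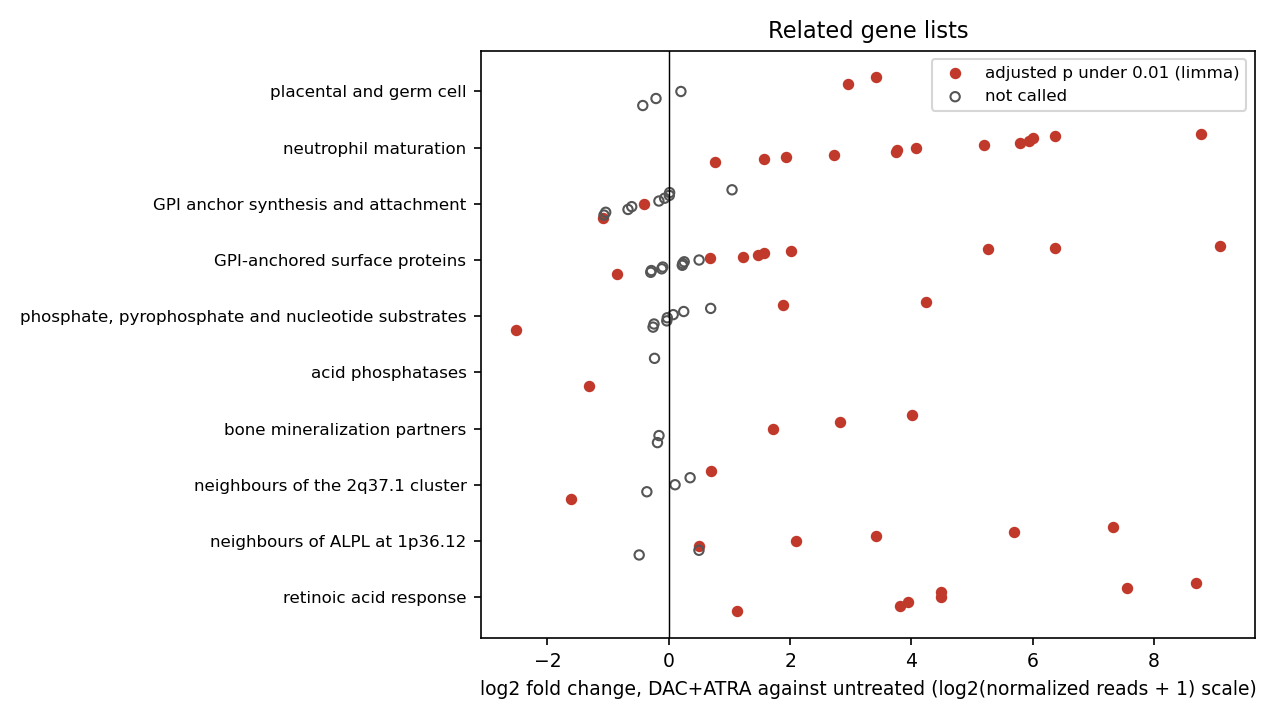
Log2 fold change with DAC + ATRA vs. untreated on the log2(normalized reads + 1) scale (x axis) for each tested gene of the listed groups (y axis). Filled points passed an adjusted p of 0.01 (limma), open points did not. The 13 tested neutrophil maturation genes, CXCR1 and CEACAM1 included, lie right of 0, and the GPI anchor synthesis genes lie mostly left of it.

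The identity of the cells was checked with marker genes. Of 16 myeloid markers, 11 had a mean of at least 10 normalized reads in untreated cells, with CD33 at 848 and CD4 at 3734. Of the erythroid markers, HBB, HBA1 and ALAS2 were listed at 0 and KLF1 had 58.1 to 123 normalized reads. The 5 epithelial markers EPCAM, KRT8, KRT18, KRT19 and CDH1 together had 0 to 0.91 normalized reads in untreated and 0 to 0 in ATRA-treated libraries, 9.73 to 26.3 with DAC and 12.4 to 24.2 with DAC + ATRA. CDH1 was at 0 throughout. Other lists moved more. The sum of 4 endothelial markers was 134 to 162 in untreated, 2414 to 2471 in DAC, 257 to 317 in ATRA and 2914 to 3264 in DAC + ATRA libraries. Nearly all of it was PECAM1, an adhesion molecule gene also used by leukocytes, and without it the other 3 summed to 4.595 to 11.1, 63.3 to 78.7, 3.33 to 16.9 and 67.97 to 78.7, with CDH5 at or near 0. The sum of 7 lymphoid markers was 488 to 561, 1170 to 1312, 509 to 726 and 1784 to 1903, and that of 5 fibroblast markers 25.5 to 47.1, 478 to 506, 113 to 121 and 396 to 457, in the same order. Without CD79A, the most abundant lymphoid marker, the other 6 summed to 347 to 437, 646 to 798, 284 to 378 and 485 to 563. The sum of the 16 myeloid markers was 62850 to 70170 in untreated and 36910 to 39560 in DAC + ATRA libraries. It was led by MPO, the myeloperoxidase gene, and without MPO the other 15 went the other way, from 13370 to 15120 in untreated to 22640 to 24020 in DAC + ATRA libraries. The endothelial, fibroblast and epithelial sums were thus already raised with DAC alone, where ALPP had no read. Their part in the levels of ALPP and ALPPL2 was not tested.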

How the data were processed

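The RNA-seq data were 12 libraries of U937 cells in 4 groups of 3. Per the labels and the study's methods, total RNA was depleted of ribosomal RNA, and strand-specific paired-end libraries were made. Per the submitters' processing notes, STAR, HTSeq and DESeq2 were used with hg38, and versions and counting mode are not given in the sources used here. The deposited values are signal: the authors counted reads for each transcript and divided them by 1 size factor per library. Whole reads were recovered from the smallest step in each library (100% of values within 0.01 of a read, largest deviation 5.7e-05). Between 8042435 and 10683593 reads were counted per library, with a median of 9874622. No columns of fold changes or p-values were used.

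Protein-coding transcripts with at least 10 normalized reads in at least 3 libraries (9016) were tested with limma 3.58.1 in R 4.3.3 on log2(normalized reads + 1). The fit held all 12 libraries, with Benjamini-Hochberg adjustment and a threshold of 0.01. Log2 fold changes are on that scale and understate the change of low transcripts. Transcripts were located in GENCODE 44, which held 13 of the 14 alkaline phosphatase transcripts. Each listed gene is given by its most abundant protein-coding transcript. Named were every alkaline phosphatase transcript with a read, up to 3 genes with the largest and 3 with the smallest log2 fold change with DAC + ATRA of each list, the tested listed neighbors, and the 5 transcripts most like ALPPL2 and ALPP. PIGX was named beside this rule to complete a count of 2. The genes and lists were chosen with earlier results of these data known. Tests planned for ALPI and ALPL could not be made with 0 reads. Promoters came from RefSeq, and direct repeats and CpGs from the hg38 sequence. Alternatives were edgeR 4.0.16 and DESeq2 1.42.0 on the recovered reads, library size scaling, a pseudocount of 0.1, no filter, all transcripts, only the groups compared, sums by symbol and leaving out each library. Leaving out listed genes tested only through DAC + ATRA, the length scales of the ALPP to ALPPL2 ratio and edgeR without DAC library 3, whose step lay close to 1, were added after the data were seen. Tested only through DAC + ATRA means that fewer than 3 of the other libraries reached 10 normalized reads. On data simulated for DAC + ATRA vs. untreated with 9016 transcripts, limma found 58% of 2-fold and 96% of 4-fold changes and made 2 false calls. The simulation changed few transcripts and used the known size factors, so it does not cover calls that depend on the scaling. Library numbers follow the column order and pair no samples. Tables were computed in Python 3.11.15 with pandas 2.3.3, scipy 1.17.1 and Biopython 1.88.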

Additional observations from a re-analysis of the deposited data

Results flagged for a closer look

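For 5 of the named genes that were not tested solely because of the combination, the effect of DAC differed between cells with and without ATRA, as the DAC × ATRA interaction of the limma fit (log2, adjusted p under 0.01, passed by 2.46% of all tested transcripts). It was above 0 for HSPG2 (1.09, adjusted p = 0.00049, limma). It was below 0 for COL1A1 (-2.06, adjusted p = 4.1e-05, limma), S100A9 (-1.30, adjusted p = 0.00011, limma), the surface enzyme VNN1 (-1.24, adjusted p = 0.00022, limma) and the membrane protease MMP25 (-1.05, adjusted p = 0.00579, limma). For MMP25 the call was lost under 11 of 21 alternatives, 10 of them the fits without 1 library (adjusted p up to 0.0274, limma), and for the other 4 genes it was lost under none of the 21. ALPP and ALPPL2 are not listed here because their interaction belongs to the contrast by which they were chosen, and CYP26A1 and CEACAM1 because they passed the filter on low values only through DAC + ATRA.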

How the results depend on the processing

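Without any 1 library, the mean with DAC + ATRA ranged from 40.3 to 43.7 for ALPP and from 69.7 to 86.5 for ALPPL2, that of ALPPL2 from 0.498 to 1.96 with DAC and from 0 to 0.455 with ATRA, and all other group means were 0 to 0. The log2 ratio of ALPP to ALPPL2 per kb outside other transcripts was 0.49 (0.34 to 0.58 without any 1 library), 0.91 per 1000 countable windows, -1.02 per kb of transcript and -0.87 without length scaling. By Spearman's rho, 3 of the 5 transcripts most like ALPP and 0 of those most like ALPPL2 were shared.

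Counts of called transcripts left out 1 library at a time ranged from 3001 to 3876 for DAC, 622 to 1024 for ATRA, 3631 to 4488 for DAC + ATRA vs. untreated, 751 to 1255 for DAC + ATRA vs. DAC, 2628 to 3153 for DAC + ATRA vs. ATRA and 148 to 483 for the interaction. The 483 came without ATRA library 3, compared with 222 in the full fit and 341 with DESeq2. With all transcripts tested, the 5 other counts were 6485, 1351, 8065, 1699 and 5688. With DAC + ATRA, 69.7% of the calls were higher by limma with the deposited scaling, 58.6% by limma with library size scaling and 59.0% by edgeR with TMM, where the median of all transcripts moved by -0.15 and -0.14. GPI anchor genes called rose to 4 with edgeR, and phosphate genes to 5 with edgeR, DESeq2 and library size scaling. EIF4E2, PIGM and PIGP, none of them called, changed sign under edgeR (-0.037, -0.13 and -0.14), DESeq2 (-0.036, -0.13 and -0.14), edgeR without DAC library 3 (-0.053, -0.14 and -0.16) and library size scaling (-0.042, -0.13 and -0.13). Without any 1 library, PIGM ranged from -0.070 to 0.082, PIGP from -0.054 to 0.083 and TFAP2A from -0.26 to 0.91, and TFAP2A was -0.20 when summed by symbol. With DAC + ATRA vs. untreated, ECE1 lost its call under 3 alternatives and TNFRSF10C under 6. Leaving out genes tested only through DAC + ATRA, 1 placental and germ cell gene was called. The causes were not tested. No paired analysis was possible because the columns carry no replicate number. At this depth, fewer than 3 reads in a single library cannot be told from 0. The floor of 3 reads used for folds applies to the 3 libraries of a group together.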
